A study of Mus musculus with 9 samples.

Results

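The miR-181 family was followed through small RNA libraries from small extracellular vesicles (smEVs) of mouse kidney cells. It comprised the 4 entries mmu-miR-181a, mmu-miR-181b, mmu-miR-181c and mmu-miR-181d of a count table with 1164 miRNA entries, and all 4 were measured in all 9 libraries. These members were chosen by name with earlier results of the same libraries known. In Bbs4-/- smEVs, miR-181d had been called lower than in WT, and miR-181c and miR-181d lower than in Bbs6-/-. For the members, comparisons that involve Bbs4-/- are therefore given as a description with no p-value, and where it is said that a member passed a threshold there, this comes from a contrast used in the choice and supports nothing. p-values for members are given only for Bbs6-/- against WT. The WT and Bbs6-/- libraries also took part in the comparisons used in the choice, so these p-values are not independent of it.

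The vesicles were pelleted from the medium of immortalised kidney medullary (KM) cells after 24 h without serum, which stops proliferation and lets the cells grow a primary cilium. There were 3 libraries from the Bbs4-/- line, 3 from the Bbs6-/- line and 3 from the WT line, and no line received any other treatment named in the labels. Bbs4 is a subunit of the BBSome, the coat complex that carries membrane proteins in and out of the cilium, and Bbs6 (Mkks) belongs to the chaperonin-like proteins on which BBSome assembly depends. Each genotype was represented by 1 line, so effects of genotype and of line cannot be told apart, and the 3 libraries of a line were separate smEV pellets whose spread is that of repeated preparations of that line. Library names keep the column numbering of the table: Bbs4-/- replicates 1, 2 and 3, Bbs6-/- replicates 2, 3 and 4, and WT replicates 1, 3 and 4.

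A miRNA is cut from a hairpin in a longer transcript and guides Argonaute to messenger RNAs that pair with its seed, bases 2 to 8 counted from the 5′ end. miRNAs with the same seed form a family with largely shared targets, even when their genes lie on different chromosomes under different promoters. The miR-181 family is best known from the thymus, where miR-181a raises the sensitivity of the T cell receptor by repressing phosphatases, and from brain and liver. In liver cancer cells it represses Nlk, an inhibitor of Wnt signalling. Vesicle miRNAs reflect both what the cell makes and what it exports, and these libraries hold vesicle RNA only.

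The 4 mature sequences from the 5′ arm of the hairpins are shown because the comparison of the clusters rests on telling them apart. They are RefSeq sequences for the GRCm38.p6 assembly, written 5′ to 3′ with the seed in capitals.
mmu-miR-181a-5p: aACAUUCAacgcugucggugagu
mmu-miR-181b-5p: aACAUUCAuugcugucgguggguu
mmu-miR-181c-5p: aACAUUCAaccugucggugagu
mmu-miR-181d-5p: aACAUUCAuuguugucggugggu
All 4 carried the seed ACAUUCA, and of 1679 mature names in the RefSeq table these 4 were the only ones that did. Across the clusters the sequences fell into closely matched pairs. miR-181c equalled miR-181a with the G at position 11 of miR-181a left out. miR-181d differed from miR-181b by C12U (base of miR-181b first, counted from its 5′ end) and ended 1 base earlier. miR-181a and miR-181b, which share their clusters, differed by A9U, C10U and A21G (base of miR-181a first) and by a last base present only in miR-181b. Reads of at least 15 bases were kept for counting. Each read of a full 5′ end thus extended past the first base at which either pair differs. This base is at position 11 for miR-181a and miR-181c and at position 12 for miR-181b and miR-181d. The mismatches that the counting allowed were not examined, so the assignment of reads between near matches was not checked.

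The 4 mature miRNAs came from 6 genes in 3 genomic clusters (GRCm38.p6). On chromosome 1, Mir181a-1 (137966455 to 137966541) and Mir181b-1 (137966639 to 137966718) lay on the plus strand 184 bp apart, measured between starts, in exons of the long non-coding RNA A430106G13Rik. On chromosome 2, Mir181a-2 (38852735 to 38852810) and Mir181b-2 (38853830 to 38853918) lay on the plus strand 1095 bp apart, within an intron of Nr6a1, an orphan nuclear receptor gene transcribed from the opposite strand. On chromosome 8, Mir181d (84178716 to 84178787) and Mir181c (84178873 to 84178961) lay on the minus strand 157 bp apart, in an intron of Nanos3, a germ cell RNA-binding protein gene on the same strand. Mature miR-181a and miR-181b are identical from both of their genes, so their counts could not be divided between chromosomes 1 and 2, whereas miR-181c and miR-181d each came from a single gene on chromosome 8.

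Depth was lowest in WT, where a library held 64118 to 130905 counts. The mutant libraries were all deeper, with 176935 to 457163 counts for Bbs4-/- and 192654 to 423784 for Bbs6-/-. Levels are given as CPM, library-size-scaled counts after TMM scaling by edgeR, a method that sets libraries to a common level over most miRNAs. In vesicle RNA, fewer vesicles carrying a miRNA and fewer copies per vesicle cannot be told apart. Taking 3 counts as the most that a true count of 0 allows, the floor was 19.4 to 36.5 CPM in WT, 6.98 to 19.0 CPM in Bbs4-/- and 8.59 to 16.5 CPM in Bbs6-/-. Replicates of a line were not copies of 1 library, since their chi-square divided by its degrees of freedom ran from 12.4 to 110, and the highest values were those of Bbs6-/- replicate 2 against the other two Bbs6-/- libraries. The epithelial miR-200 and miR-141 entries, 5 in all, summed to 9993 to 13305 CPM in WT, 16968 to 18926 in Bbs4-/- and 16551 to 21410 in Bbs6-/-. Of these, miR-200b was the highest, at 7404 to 11718 CPM over all libraries, while miR-141 had no count in WT. Against WT, 2 of the 5 passed in each mutant, miR-141 and miR-200c, both higher. Of all miRNAs tested against WT, 15.1% passed in Bbs6-/- and 15.3% in Bbs4-/- (edgeR). miR-200c was at 6.46 to 17.8 CPM in WT, 3243 to 3373 in Bbs4-/- and 176 to 4414 in Bbs6-/-. Its log2 fold change was 7.97 in Bbs4-/- (adjusted p = 1.13e-09, edgeR) and 7.89 in Bbs6-/- (adjusted p = 0.00486, edgeR). The 5 blood cell entries summed to 85.1 CPM at most, with miR-451a the highest at up to 53.4 CPM and miR-150 the lowest with a single count in all. The liver miRNA miR-122 was at 26.7 to 85.1 CPM in WT, at most 75.2 CPM in Bbs6-/- and at most 8.96 CPM in Bbs4-/-, and it was called lower in Bbs4-/- than in WT (log2 fold change -4.16, adjusted p = 0.0586, edgeR), as was miR-181d. Of 4 smooth muscle and fibroblast entries, miR-145a and miR-214 had no count, and the list summed to 20.0 to 71.8 CPM in Bbs6-/-, 80.1 to 162 in WT and 123 to 273 in Bbs4-/-. Of this list miR-143 was called higher in Bbs4-/- than in Bbs6-/- (log2 fold change 2.19, adjusted p = 0.0484, edgeR). The part of these other cell type entries in the results below was not tested.

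miR-181a was the most abundant member on average in every line, and its scaled levels did not overlap between the 3 lines. In WT it exceeded miR-181b in 1 of 3 libraries. The Bbs4-/- libraries held 232, 390 and 586 counts, or 1467, 1747 and 1364 CPM. The Bbs6-/- libraries held 483, 840 and 1180 counts, or 2651, 2871 and 3378 CPM. The WT libraries held 82, 122 and 155 counts, or 997, 1086 and 1002 CPM. Bbs6-/- was highest at 2966 ± 373 CPM (SD, n = 3), Bbs4-/- lay between at 1526 ± 198 (SD, n = 3) and WT was lowest at 1028 ± 50.3 (SD, n = 3), with no overlap between any of the lines. In Bbs4-/- against WT, miR-181a did not pass the adjusted p threshold of 0.1 in edgeR. Its log2 fold change there was 0.46, or 0.29 when scaled by total counts without TMM. How many of all miRNAs separated the lines without overlap was not counted, here or for the other members.

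miR-181b, made from the same clusters as miR-181a, stood at a similar level with smaller differences between lines. Its counts were 235, 306 and 504 in Bbs4-/- (1486, 1371 and 1173 CPM), 359, 370 and 598 in Bbs6-/- (1970, 1265 and 1712 CPM) and 57, 141 and 165 in WT (693, 1256 and 1067 CPM). The order of the means was the same as for miR-181a, with 1649 ± 357 CPM in Bbs6-/-, 1343 ± 158 in Bbs4-/- and 1005 ± 286 in WT (SD, n = 3 each). Neighbours in this order overlapped, and Bbs6-/- and WT were separated only narrowly, by 1265 CPM in the lowest Bbs6-/- library against 1256 CPM in the highest WT library.

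miR-181c was the scarcest member by mean in all 3 lines. It had 2, 8 and 24 counts in Bbs4-/- (12.6, 35.8 and 55.9 CPM), 72, 96 and 56 in Bbs6-/- (395, 328 and 160 CPM) and 7, 9 and 36 in WT (85.1, 80.1 and 233 CPM). All Bbs4-/- libraries lay below all others, while Bbs6-/- and WT overlapped. The first Bbs4-/- library, with 2 counts, was under the floor of 3 counts, so its level there cannot be told from 0. The means were 34.8 ± 21.6 CPM in Bbs4-/-, 294 ± 121 in Bbs6-/- and 133 ± 86.7 in WT (SD, n = 3 each).

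miR-181d, the chromosome 8 partner of miR-181c, showed the same order of lines. Its counts were 14, 10 and 8 in Bbs4-/- (88.5, 44.8 and 18.6 CPM), 143, 60 and 90 in Bbs6-/- (785, 205 and 258 CPM) and 19, 35 and 64 in WT (231, 312 and 414 CPM). Again every Bbs4-/- library lay below every library of the other lines. The mean of 416 ± 321 CPM (SD, n = 3) in Bbs6-/- rested on replicate 2, and the other two Bbs6-/- libraries lay within or below the WT range. The means were 50.6 ± 35.3 CPM in Bbs4-/- and 319 ± 91.6 in WT (SD, n = 3 each).

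**Figure D1:**
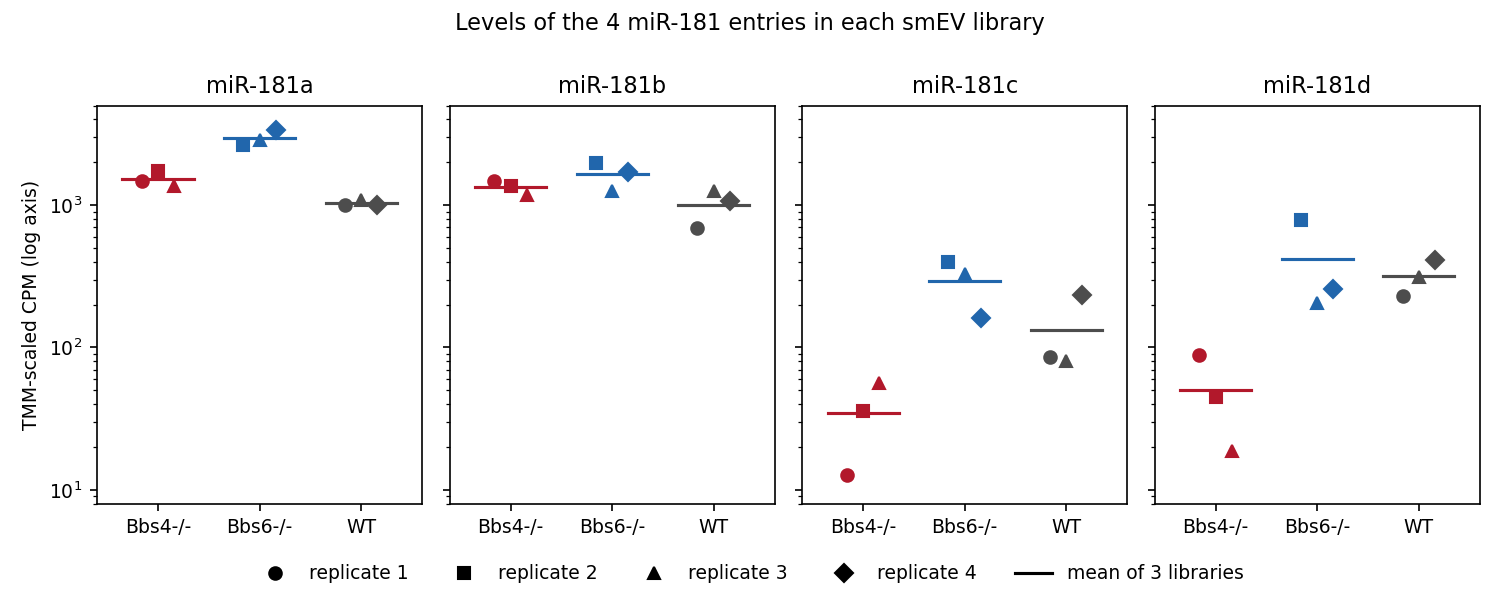
Level of each miR-181 entry in each of the 9 libraries, as TMM-scaled CPM on a log axis, with a marker shape for each replicate number and a line at the mean of the 3 libraries of a line. miR-181a and miR-181b stay between 693 and 3378 CPM throughout, while miR-181c and miR-181d fall to between 12.6 and 88.5 CPM in Bbs4-/-.

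Ranked among all entries of a library, miR-181a stood between place 46 and place 67 and miR-181b between place 53 and place 75. miR-181c moved from place 90 in Bbs6-/- replicate 2 to place 230 in Bbs4-/- replicate 1, and miR-181d from place 71 in Bbs6-/- replicate 2 to place 215 in Bbs4-/- replicate 3. A rank needs no scaling between libraries, although it does depend on depth among scarce entries.

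The 4 other entries of the table whose names begin with mmu-miR-181 were close to empty. miR-181a-1 had 0 to 7 counts in a library, miR-181a-2 and miR-181b-2 had at most 2, and miR-181b-1 had none in any library. RefSeq gives these numbered names to the 3′ arms of the miR-181a and miR-181b hairpins. The entries miR-181c and miR-181d carry no arm in the table, so which arm gave their counts could not be told from the names.

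Within the family, the chromosome 8 members made up a small part of the counts in Bbs4-/- smEVs and a larger and more variable part elsewhere. Together miR-181c and miR-181d gave 16 of 483, 18 of 714 and 32 of 1122 family counts in Bbs4-/- replicates 1, 2 and 3. These are shares of 3.31% (95% Wilson interval 2.05 to 5.31), 2.52% (1.60 to 3.95) and 2.85% (2.03 to 3.998). In Bbs6-/- replicates 2, 3 and 4 the share was 20.3% (18.0 to 22.9), 11.4% (9.84 to 13.2) and 7.59% (6.49 to 8.86), so the 3 libraries differed by more than counting error. In WT replicates 1, 3 and 4 it was 15.8% (11.0 to 22.1), 14.3% (10.9 to 18.7) and 23.8% (20.0 to 28.1). All Bbs4-/- shares lay below all others, and the Bbs6-/- and WT shares overlapped. Such a share compares molecules within a library and does not depend on scaling between libraries, and the intervals cover counting error only.

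**Figure D2:**
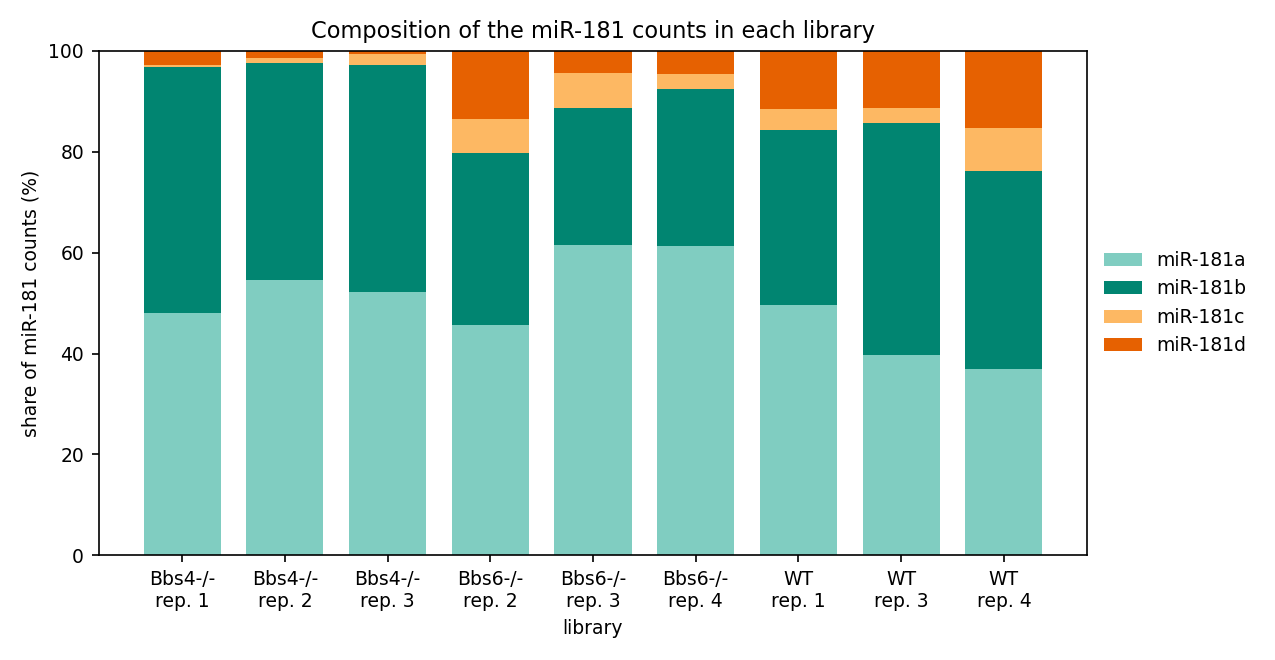
Composition of the miR-181 counts in each library, as the percentage from each of the 4 entries, with 1 bar per library. miR-181c and miR-181d together take 14.3% to 23.8% of the bar in WT, 2.52% to 3.31% in Bbs4-/- and 7.59% to 20.3% in Bbs6-/-.

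Summed over the 4 entries, the family took 0.425% to 0.549% of the counts in Bbs6-/-, against 0.245% to 0.335% in Bbs4-/- and 0.257% to 0.321% in WT. In scaled units the sum was 2955 ± 305 CPM in Bbs4-/-, 5325 ± 588 in Bbs6-/- and 2485 ± 415 in WT (SD, n = 3 each). All Bbs6-/- libraries lay above all others, and the Bbs4-/- and WT ranges overlapped. The log2 difference between Bbs6-/- and WT was 1.11 with a standard error of 0.17 (two-sided exact permutation test, p = 0.1, adjusted over 5 such tests 0.333). With 3 libraries against 3 this test cannot give a p below 0.1, so none of the ratios and sums tested in this way could reach 0.05.

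Bbs6-/- was compared with WT to ask whether the miR-181 clusters differ in the line lacking the chaperonin-like Bbs6. miR-181a was higher in Bbs6-/- by a log2 fold change of 1.55 with a standard error of 0.22, a 2.94-fold difference (adjusted p = 0.0032, edgeR's quasi-likelihood test with Benjamini-Hochberg adjustment over 298 miRNAs). It passed the adjusted p threshold of 0.1 but not the further limit of 2 on the log2 fold change that a call required. The 3 others had positive log2 fold changes and missed the threshold in edgeR: 0.74 for miR-181b (standard error 0.26, adjusted p = 0.115), 1.11 for miR-181c (standard error 0.56, adjusted p = 0.272) and 0.34 for miR-181d (standard error 0.51, adjusted p = 0.754). DESeq2 put miR-181b at a log2 fold change of 0.71 and past the threshold (adjusted p = 0.098). Thus 1 of the 4 members passed in edgeR, where 15.1% of all 298 miRNAs tested passed, and 2 in DESeq2, where 29.4% of the 194 miRNAs with an adjusted p passed. None of the 4 was called by either tool, against 4.03% of all miRNAs in edgeR and 6.7% in DESeq2. Both tools gave 2 of the 4 an unadjusted p under 0.05, but the share of all miRNAs with such a p was not counted.

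The median log2 fold change of the 4 members in Bbs6-/- against WT was 0.92, beside -0.01 over all 298 miRNAs tested. Scaling by total counts without TMM moved the median of all miRNAs by -0.43, and the value for miR-181a became 1.13 (adjusted p = 0.00922, edgeR), still higher in Bbs6-/-. The value of miR-181d depended on Bbs6-/- replicate 2, which also stood apart over the whole table: without that library the log2 fold change was -0.42 (adjusted p = 0.525, edgeR). Over all libraries left out in turn, miR-181a stayed between 1.47 and 1.66. miR-181c ranged from 0.80 without WT replicate 3 (adjusted p = 0.531, edgeR) to 1.77 without WT replicate 4 (adjusted p = 0.129, edgeR).

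The balance between clusters was measured as the log2 ratio of miR-181c plus miR-181d to miR-181a plus miR-181b, with 0.5 added to each of these sums. It was -2.84 ± 0.82 in Bbs6-/- and -2.21 ± 0.47 in WT (SD, n = 3 each), a difference of -0.63 with a standard error of 0.55. The groups overlapped and the test gave p = 0.4 (two-sided exact permutation test, adjusted 0.4), so a difference in cluster balance between Bbs6-/- and WT was not detectable with these libraries. Single libraries moved this value in both directions. The difference was -1.06 without Bbs6-/- replicate 2 (exact permutation test, p = 0.1, the smallest that 2 against 3 libraries allow), -0.25 without Bbs6-/- replicate 4 (exact permutation test, p = 0.7) and -0.36 without WT replicate 4 (exact permutation test, p = 0.7).

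Bbs4-/- was set beside WT and beside Bbs6-/- as the comparison on which the family was selected, so the values below describe it. Against WT, the log2 fold changes were 0.46 for miR-181a (standard error 0.24) and 0.30 for miR-181b (standard error 0.27), and -1.99 for miR-181c (standard error 0.65) and -2.87 for miR-181d (standard error 0.55). The pair from chromosomes 1 and 2 and the pair from chromosome 8 thus had opposite signs, but neither miR-181a nor miR-181b passed the adjusted p threshold. With total counts their values were 0.29 and 0.15, so a rise of these members was not shown. miR-181d, 7.31-fold lower than in WT, was called. miR-181c, 3.97-fold lower, passed the adjusted p threshold and lay just outside the limit of 2 on the log2 fold change. Its value rested on single libraries, and was -1.24 without WT replicate 4, the WT library with the most miR-181c, and -2.51 without Bbs4-/- replicate 3. Of the 308 miRNAs tested in this contrast 15.3% passed and 6.17% were called.

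Against Bbs6-/-, the log2 fold changes in Bbs4-/- were -0.96 for miR-181a (standard error 0.21), -0.30 for miR-181b (standard error 0.27), -2.97 for miR-181c (standard error 0.61) and -3.11 for miR-181d (standard error 0.63). miR-181c was 7.84-fold and miR-181d 8.61-fold lower in Bbs4-/-, and both were called. Of the 4 members, 3 passed the adjusted p threshold, where 8.09% of 309 miRNAs passed and 3.88% were called. The contrasts share libraries, and the values are placed side by side for that reason only. Leaving out single libraries moved miR-181d from -2.36 without Bbs6-/- replicate 2 to -3.73 without Bbs4-/- replicate 1, and miR-181c from -2.65 without Bbs4-/- replicate 1 to -3.62 without Bbs4-/- replicate 3.

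**Figure D3:**
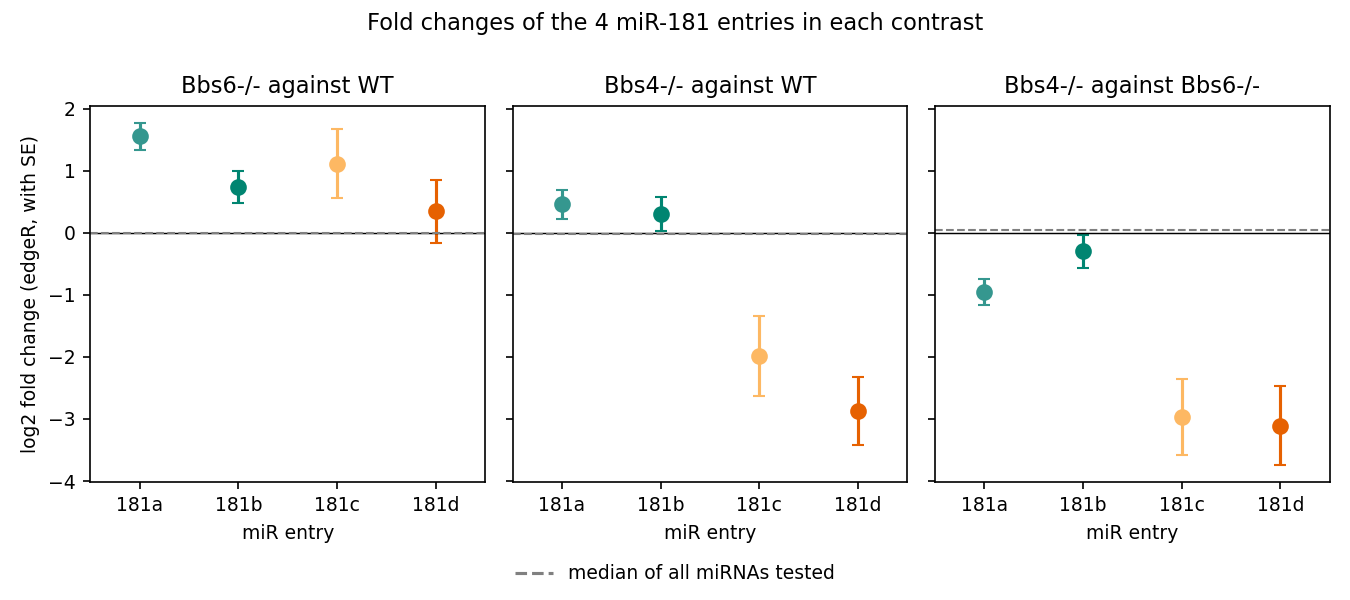
log2 fold change of each miR-181 entry in each of the 3 contrasts, with bars of 1 standard error from edgeR, a solid line at 0 and a dashed line at the median of all miRNAs tested. miR-181c and miR-181d lie at -1.99 and -2.87 against WT and at -2.97 and -3.11 against Bbs6-/-, below miR-181a and miR-181b in both contrasts with Bbs4-/-.

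The log2 ratio between the clusters was -5.04 ± 0.21 in Bbs4-/- (SD, n = 3), with -4.82, -5.23 and -5.07 in replicates 1, 2 and 3. The difference was -2.83 from WT (standard error 0.30) and -2.20 from Bbs6-/- (standard error 0.49). The range of 0.41 within Bbs4-/- was narrower than the 1.63 between Bbs6-/- replicates 2 and 4 or the 0.89 between the extreme WT libraries. With 3 libraries of 16, 18 and 32 miR-181c plus miR-181d counts, a steadier balance in Bbs4-/- was not shown. In counts, 66 of miR-181c and miR-181d stood against 2253 of miR-181a and miR-181b in Bbs4-/-, 517 against 3830 in Bbs6-/- and 170 against 722 in WT.

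The chromosome 8 partners did not keep a fixed proportion to each other in Bbs4-/-, although the Wilson intervals of their summed share of the family overlapped. miR-181d gave 14 of 16 chromosome 8 counts in replicate 1, 10 of 18 in replicate 2 and 8 of 32 in replicate 3. Its share was thus 87.5% (95% Wilson interval 64.0 to 96.5), 55.6% (33.7 to 75.4) and 25.0% (13.3 to 42.1), and the intervals of replicates 1 and 3 did not overlap. miR-181c was at its highest where miR-181d was at its lowest. In WT, miR-181d exceeded miR-181c in all 3 libraries, with 73.1% (53.9 to 86.3), 79.5% (65.5 to 88.8) and 64.0% (54.2 to 72.7) of their counts. In Bbs6-/- it took 66.5% (59.96 to 72.5), 38.5% (31.2 to 46.3) and 61.6% (53.6 to 69.1), with miR-181c the higher member in replicate 3 only.

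**Figure D4:**
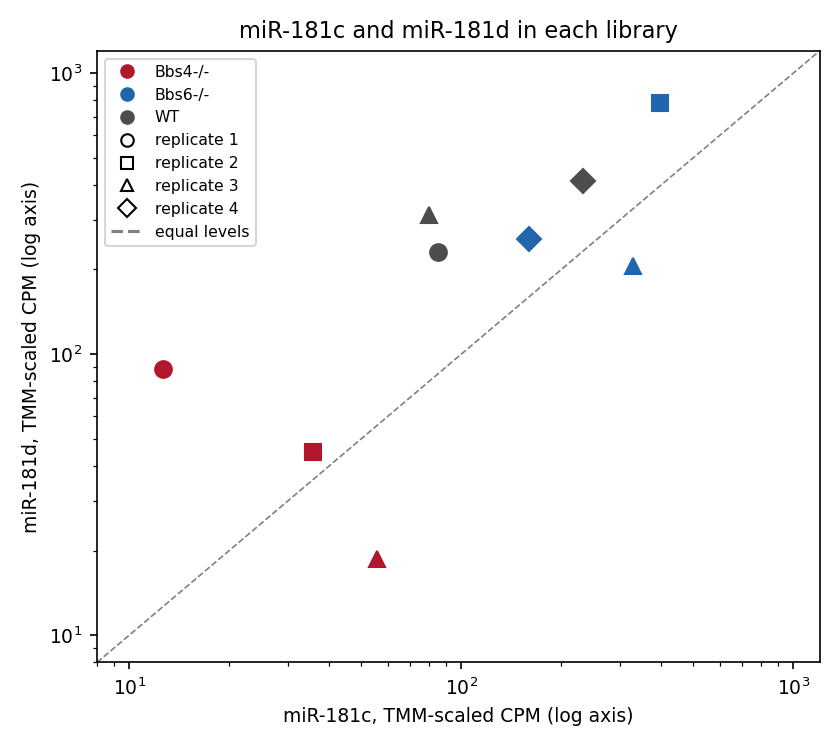
Level of miR-181d against that of miR-181c in each library, as TMM-scaled CPM on log axes, coloured by line and with a marker shape for each replicate number. The 3 Bbs4-/- libraries lie at the lower left, running from 12.6 and 88.5 CPM to 55.9 and 18.6 CPM (miR-181c and miR-181d) across the dashed line of equal levels.

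As log2 ratios of miR-181d to miR-181c, the lines stood at 0.44 ± 2.03 in Bbs4-/-, 0.33 ± 0.88 in Bbs6-/- and 1.37 ± 0.54 in WT (SD, n = 3 each). The difference between Bbs6-/- and WT was -1.04 with a standard error of 0.60 (two-sided exact permutation test, p = 0.2, adjusted 0.333). For the partners miR-181b and miR-181a the ratio was -0.18 ± 0.19 in Bbs4-/-, -0.86 ± 0.39 in Bbs6-/- and -0.07 ± 0.39 in WT (SD, n = 3 each). miR-181b thus stood at 69.5% to 116% of the miR-181a count in WT, 78.5% to 101% in Bbs4-/- and 44.0% to 74.3% in Bbs6-/-. The difference between Bbs6-/- and WT was -0.79 with a standard error of 0.32 (two-sided exact permutation test, p = 0.2, adjusted 0.333), and the groups overlapped.

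The members closest in sequence belong to different clusters, and their proportions also varied over the libraries. The miR-181d count was 5.96%, 3.27% and 1.59% of the miR-181b count in Bbs4-/-, 39.8%, 16.2% and 15.1% in Bbs6-/- and 33.3%, 24.8% and 38.8% in WT. As a log2 ratio this was -4.93 ± 0.94 in Bbs4-/-, -2.22 ± 0.78 in Bbs6-/- and -1.64 ± 0.32 in WT (SD, n = 3 each). Bbs6-/- and WT overlapped and differed by -0.58 with a standard error of 0.49 (two-sided exact permutation test, p = 0.4, adjusted 0.4). The miR-181c count was 7.38% to 23.2% of the miR-181a count in WT, 0.862% to 4.10% in Bbs4-/- and 4.75% to 14.9% in Bbs6-/-. Whether any reads of a member were counted under its near match was not tested.

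Over the 9 libraries, log2 CPM of the members was compared pair by pair. Pearson's r was 0.73 between miR-181a and miR-181b and 0.72 between miR-181c and miR-181d. Between members of different clusters it was 0.43 for miR-181a with miR-181c and 0.16 for each of the 3 other pairs. These are descriptions over libraries that share line and depth. They include the Bbs4-/- libraries, where miR-181c and miR-181d were both low and on which the family was chosen. The r between miR-181c and miR-181d therefore supports nothing by itself.

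No tested product of the miRNA genes nearest to the chromosome 8 pair passed the test in any contrast. Within 100 kb of a miR-181 gene the only other miRNA genes matched to an entry of the table were the miR-23a, miR-27a and miR-24-2 cluster, on the plus strand of chromosome 8 with starts 29645 to 30099 bp from those of Mir181c and Mir181d, and Mir3074-2 on the minus strand. miR-24 is also made from a gene on another chromosome. miR-23a (11722 to 13132 CPM in Bbs4-/-, 10102 to 13994 in Bbs6-/-, 9835 to 15629 in WT) and miR-27a (2971 to 3476, 2948 to 4604 and 2747 to 3833 CPM in the same order) overlapped in all 3 lines. Their log2 fold changes were -0.16 (standard error 0.21) and -0.19 (standard error 0.22) in Bbs4-/- against WT, and -0.03 (standard error 0.21) and -0.19 (standard error 0.22) against Bbs6-/-. The largest difference from WT among the abundant entries was that of miR-24, at -0.47 (standard error 0.20) in Bbs4-/- with adjusted p = 0.166 in edgeR. Of the 6 entries, 4 were tested in Bbs6-/- against WT and 5 in each of the other contrasts, and none passed in edgeR or DESeq2. Of all miRNAs tested, 15.1% passed in Bbs6-/- against WT, 15.3% in Bbs4-/- against WT and 8.09% in Bbs4-/- against Bbs6-/- (edgeR). With so few entries, none passing cannot be told apart from these shares. An unadjusted p under 0.05 was given to 1 entry in Bbs4-/- against WT and to 0 in the other contrasts by both tools. The share of all miRNAs with such a p was not counted. miR-3074 had at most 11 counts in a line and miR-3074-2 had none.

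The spread of fold changes within the miR-181 family was set beside that of 9 other seed families with at least 3 entries of at least 90 counts each. The entries were placed by bases 2 to 8 of either arm, since the table names no arm. The families were therefore not all separate, as let-7b and miR-98 stood both in the let-7 family and in a set with let-7a-1. In Bbs4-/- against Bbs6-/- the distance from the lowest to the highest log2 fold change was 2.81 in the miR-181 family. The next widest was the miR-100, miR-99a and miR-99b family with 1.85, the median of the other families was 0.73, and the narrowest was the miR-200b, miR-200c and miR-429 family with 0.40. The miR-181 value in the contrasts with Bbs4-/- comes from the comparison on which the family was selected and supports nothing by itself.

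Against WT other families spread more widely. In Bbs4-/- the miR-200b family had a spread of 7.78 and the miR-100 family of 3.71, followed by the miR-181 family with 3.33. The narrowest spread there was 0.44, in the family of miR-106b, miR-17, miR-20a and miR-93. In Bbs6-/- against WT, a contrast not itself used in the selection although its libraries were, the miR-181 spread was 1.21. It stood in place 7 of 10, below the median of 1.62 over the other families. That median was the spread of the let-7a-1, let-7b and miR-98 set. The miR-200b and miR-100 families were again the widest, with 7.42 and 5.49, and the family of miR-30a, miR-30c and miR-30e the narrowest with 0.42.

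**Figure D5:**
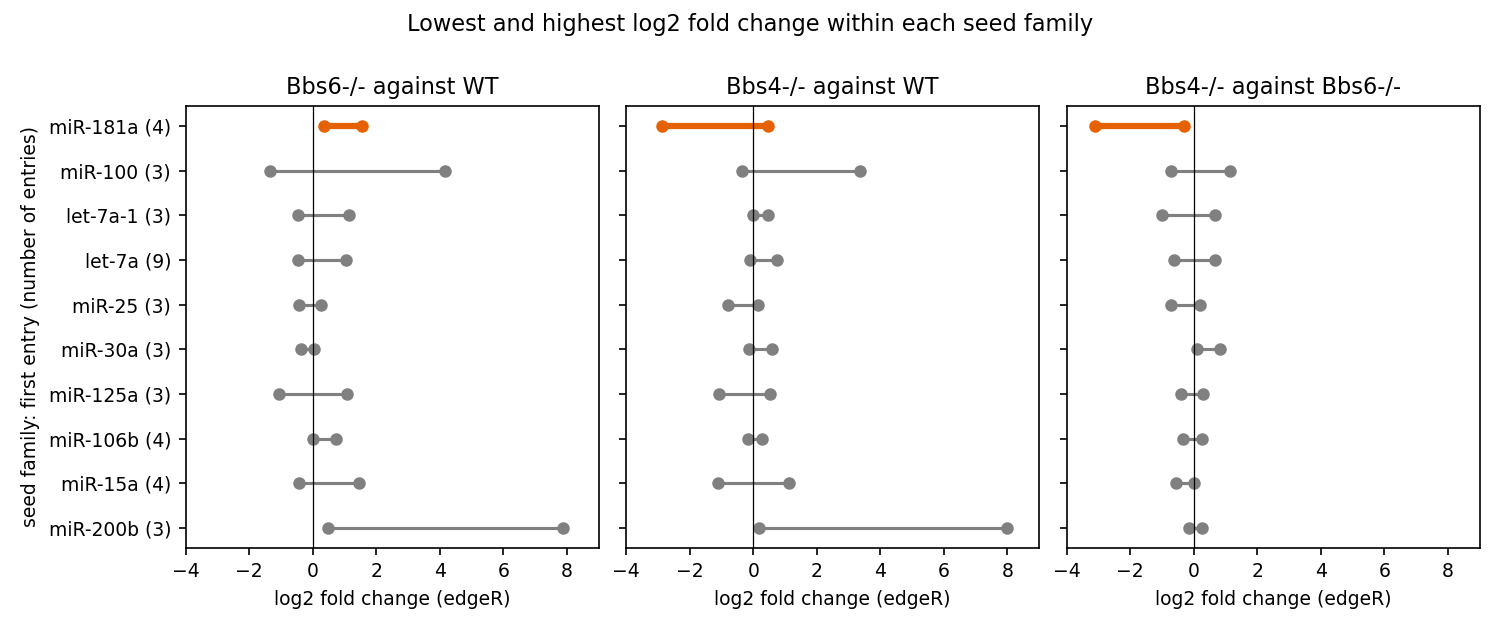
Lowest and highest log2 fold change (edgeR) within each of 10 seed families in each contrast, joined by a line, with the miR-181 family in orange and the number of entries in parentheses after the name of the first entry. The miR-181 line spans 1.21 in Bbs6-/- against WT, 3.33 in Bbs4-/- against WT and 2.81 in Bbs4-/- against Bbs6-/-.

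For each member, the 3 entries with the most similar log2 CPM over the 9 libraries were taken from 179 miRNAs with at least 90 counts in all. For miR-181a these were miR-34c (Pearson's r 0.99) and miR-34b (0.97), which are p53 targets, and miR-93 (0.93). miR-34c had 506 ± 283 CPM in Bbs6-/- and 43.7 ± 28.4 in Bbs4-/- (SD, n = 3 each) and no count in WT, so it followed the same order of lines as miR-181a with far wider steps. For miR-181b they were miR-26b (0.91), miR-10a (0.88), a Hox cluster miRNA, and miR-23b (0.85). miR-26b, like miR-181b, was highest in Bbs6-/- at 4863 ± 457 CPM, with 3970 ± 542 in Bbs4-/- and 3039 ± 383 in WT (SD, n = 3 each).

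The entries most like the chromosome 8 members were partly the same. For miR-181c they were miR-450a (0.89), miR-335 (0.88), from an intron of the imprinted gene Mest, and miR-676 (0.75). For miR-181d they were miR-25 (0.83), miR-676 (0.77) and miR-335 (0.75). miR-335 was at 49.3 ± 15.4 CPM in Bbs4-/-, 351 ± 252 in Bbs6-/- and 108 ± 12.4 in WT (SD, n = 3 each), the same order as for miR-181c. miR-676 was at 28.3 ± 7.88 CPM in Bbs4-/- and 166 ± 58.6 in Bbs6-/-, and was highest in WT at 234 ± 76.7 (SD, n = 3 each). Among all entries compared, miR-181d stood in place 4 of likeness to miR-181c, and miR-181c in place 5 of likeness to miR-181d. Both places draw on the Bbs4-/- libraries used in the choice. For the other same-cluster pair, miR-181b stood in place 25 for miR-181a and miR-181a in place 19 for miR-181b. Near these was the place 21 that miR-181a, from another cluster, took for miR-181c. In the other direction miR-181c stood in place 56 for miR-181a, and the remaining cross-cluster places ran from 53 to 78.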

How the data were processed

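Small RNA of smEV pellets was sequenced in 9 libraries, 3 per line. The authors trimmed adapters with cutadapt 1.9, removed low-quality reads, collapsed PCR duplicates by unique molecular identifiers, dropped reads under 15 bases and counted with miRDeep2. Where a miRNA had several entries they kept the largest count. The deposited counts were not normalized, and with duplicates collapsed each count approximates 1 molecule. The processing notes name GRCm38. The miRBase release is not given in the sources used here.

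Libraries were grouped by genotype. The column numbers of Bbs6-/- and WT differ from the replicate numbers of the labels, so these columns were used only as replicates of their genotype. The members and lists were chosen with earlier results of these data known.

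Differences were tested with edgeR 4.0.16 under R 4.3.3 (TMM, quasi-likelihood test, Benjamini-Hochberg adjustment). Each mutant was compared with WT on 6 libraries over miRNAs with at least 6 counts in all, and the mutants with each other in a fit of all 9 libraries over miRNAs with at least 9. Passing means an adjusted p under 0.1, and a call needed in addition a log2 fold change of 2 or more in size. Standard errors of log2 fold changes were derived from the F statistic of edgeR. Ratios and sums were compared by exact permutation of libraries in Python 3.11.15 with scipy 1.17.1. The tests were tried on simulated counts. A ratio of miR-181c to miR-181a was added after seeing the data. Alternatives were DESeq2 1.42.0, its size factors in edgeR, total counts, 2 other filters, other libraries in the fit, robust estimation, an added count of 1, the sum over all miR-181 entries, and leaving out each library in turn.

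Named miRNAs are the members, other miR-181 entries, entries within 100 kb, the 3 most correlated entries per member, the highest and lowest of the epithelial and blood lists, and the 2 widest and 1 narrowest seed families per contrast. miR-34c, miR-26b, miR-335, miR-676 and miR-200c were picked from these for their levels after seeing them. Of 1164 entries, 1026 matched a RefSeq mature sequence, among them 264 of the 309 with at least 9 counts. Gene overlaps are from GENCODE.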

Additional observations from a re-analysis of the deposited data

Results flagged for a closer look

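Differences between the mutants drew attention to 3 members, given here as a description because the family was chosen on Bbs4-/- results. miR-181a had a log2 fold change of -0.96 in Bbs4-/- against Bbs6-/-, with 1526 ± 198 against 2966 ± 373 CPM (SD, n = 3 each) and no overlap between libraries. miR-181c had -2.97, with 34.8 ± 21.6 against 294 ± 121 CPM (SD, n = 3 each). miR-181d had -3.11, with 50.6 ± 35.3 against 416 ± 321 CPM (SD, n = 3 each), and Bbs6-/- replicate 2, the library that stood apart from its line, was the highest of all 9. For miR-181c and miR-181d this is the comparison on which the family was selected. All Bbs4-/- libraries lay below all Bbs6-/- libraries for each of the 3 miRNAs. They were flagged for differing in this contrast, so the separation adds no support. The share of all miRNAs separated in this way was not counted. No group held the 4 libraries needed to look for outlying samples.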

How the results depend on the processing

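No paired analysis was possible because the column numbers of Bbs6-/- and WT do not match the replicate numbers of the labels. Of 384 values under alternatives, 359 were close to the reported ones: counts of miRNAs within 1.5 times, tested values (Bbs6-/- against WT) with the same direction and side of the threshold, and untested values with the same direction and a shift under 1 SD between replicates. This did not weigh the limit of 2 on the log2 fold change, which miR-181c in Bbs4-/- against WT crossed with total counts (-2.15) and without Bbs4-/- replicate 3 (-2.51), WT replicate 1 (-2.08) or WT replicate 3 (-2.14). Leaving out single libraries gave 14 to 67 miRNAs past the threshold in Bbs6-/- against WT (45 with all libraries), 27 to 55 in Bbs4-/- against WT (47) and 13 to 43 in Bbs4-/- against Bbs6-/- (25), with 7 to 18 called in the last (12). It moved miR-181d in Bbs6-/- against WT over -0.42 to 0.69, and the log2 ratios of b to a in Bbs4-/- against WT over -0.33 to 0.033, of d to c over -1.98 to 0.053 against WT and -0.94 to 1.09 against Bbs6-/-, and of c to a in Bbs6-/- against WT over -0.67 to 0.16. miR-181b passed in Bbs6-/- against WT with DESeq2 and with robust estimation (adjusted p = 0.0912, edgeR). With total counts the summed family CPM in Bbs4-/- against WT turned from 0.26 to -0.030 on the log2 scale. This scaling moved the median of all miRNAs by -0.43, -0.18 and 0.11 in Bbs6-/- against WT, Bbs4-/- against WT and Bbs4-/- against Bbs6-/-, and the share of passing miRNAs that were higher from 64.4% to 28.9%, 57.4% to 43.1% and 52.0% to 66.7%. Otherwise the causes were not tested. Depth limits miR-181c and miR-181d most, with 2 to 24 counts per Bbs4-/- library.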
